A study of Homo sapiens with 3 samples.

Results

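The mitochondrial SLC25 carriers were followed in the human cell line QBC-939, derived from a cancer of the bile duct (cholangiocarcinoma), after overexpression of a microRNA. The members were the protein-coding rows named SLC25A plus a number, UCP2, UCP3, MTCH1 and MTCH2. This rule found 50 of the 30923 gene rows, and 1 more row, SLC25A41, had such a name but not the protein-coding type. The 3 libraries came from cells labelled WT overexpressing miR-182-5p, from such cells with miR-183-5p in its place, and from cells given the control that the labels call NC, with 1 total-RNA library per group; the titles of both microRNA libraries end in "mim". No group has a replicate, so no spread between samples can be estimated, no p-value is given, and every ratio compares 2 libraries. The labels name no method for measuring the overexpressed microRNAs, and their levels were not analysed here.

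SLC25 proteins are nuclear-encoded carriers, most of them in the inner mitochondrial membrane, that exchange nucleotides, phosphate, carboxylates, amino acids, cofactors and metal ions between cytosol and matrix. They are made in the cytosol, received by TOM receptors, chaperoned across the intermembrane space by small TIM proteins and inserted by the TIM22 complex. In tumour cells they are known for supplying ATP to the cytosol and for exporting the citrate used in lipid synthesis. A microRNA guides Argonaute to messenger RNAs, mainly through pairing of its seed (bases 2 to 8) with the 3′ UTR.

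The sequences of both microRNAs are shown because their seeds define the sites searched for in the carrier transcripts. They are the RefSeq entries on GRCh38.p14, from chr7:129770447-129770470 for miR-182-5p and chr7:129774967-129774988 for miR-183-5p, both on the minus strand, with the seed in capitals.
hsa-miR-182-5p: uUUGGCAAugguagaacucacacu
hsa-miR-183-5p: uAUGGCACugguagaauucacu
The seeds differ, so each microRNA has its own site, TTGCCAA for miR-182-5p and GTGCCAT for miR-183-5p.

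The deposited table held 61709874 counts for miR-182-5p, 67427313 for miR-183-5p and 64516706 for NC. EPCAM, an epithelial marker, had 513 CPM (counts scaled to the library total) in miR-182-5p, 514 in miR-183-5p and 499 in NC. The biliary keratin KRT19 had 211 CPM in miR-182-5p, 215 in miR-183-5p and 229 in NC, whereas KRT7, another biliary keratin, had only 6.17 CPM in miR-182-5p, 6.96 in miR-183-5p and 4.99 in NC. The hepatocyte marker ALB was at or near 0 in all 3 libraries. Genes encoded by the mitochondrial DNA held 16.7% of counts in miR-182-5p, 16.1% in miR-183-5p and 13.5% in NC, so the nuclear genes together had a smaller share of the total in both microRNA libraries.

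A gene was taken as measured when its FPKM (fragments scaled to transcript length and library size) averaged at least 1 over the 3 libraries, which 39 of the 50 carriers and 12675 of all genes did. The threshold fell between SLC25A35, at a mean of 1.12 FPKM, and SLC25A45, at 0.961 FPKM. SLC25A35 had 1.19 FPKM in miR-182-5p, 1.41 in miR-183-5p and 0.753 in NC, so it passed only through the microRNA libraries. Its higher calls against NC are thus not independent of the filter. Ratios are ratios of CPM, with exact 95% intervals that cover counting error only. A gene was called higher when it was at least 25% higher, and lower at a ratio of 0.8 or less. The carriers together took 0.279% of the counts in miR-182-5p (95% Wilson interval 0.278 to 0.280), 0.295% in miR-183-5p (0.294 to 0.297) and 0.320% in NC (0.318 to 0.321). Of the nuclear-encoded counts alone their shares were 0.335% in miR-182-5p, 0.352% in miR-183-5p and 0.370% in NC. The carriers thus held a smaller share of the counts in both microRNA libraries. Abundant carriers weigh most in this share, and SLC25A5 alone had 420 CPM in miR-182-5p, 506 in miR-183-5p and 580 in NC. In each comparison with NC, 30 of the 39 measured carriers had a ratio below 1. Of all 12675 measured genes, 6654 had a ratio below 1 in miR-182-5p and 7250 in miR-183-5p. Among the 3659 genes at a mean of 10 FPKM or more, 2569 did in miR-182-5p and 2570 in miR-183-5p. The 10 carriers at that level all had a ratio below 1 in both comparisons. In bulk RNA of a cultured line, a lower share does not tell whether all cells or only some of them held less carrier RNA. A share of counts also does not give the amount of RNA per cell.

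In miR-182-5p against NC, 10 of the 39 measured carriers were called lower and 6 higher. The carriers called lower included SLC25A5, SLC25A6, SLC25A10, SLC25A17, SLC25A20, SLC25A26, SLC25A32, UCP2 and MTCH2, and the 6 were SLC25A14, SLC25A27, SLC25A29, SLC25A35, SLC25A36 and SLC25A37. Over all measured genes, 15.1% were called lower and 18.5% higher by total count. The carriers' 25.6% lower lay above that background and their 15.4% higher below it. The carriers' median log2 ratio was -0.16, against -0.02 for all measured genes, and it was -0.22 to -0.10 under the other settings tried. The median of all genes moved with the setting too, and was -0.08 with TMM factors, where that of the carriers was -0.22. At 1.5-fold, 2 carriers were lower (SLC25A26 and UCP2) and 3 higher (SLC25A27, SLC25A29 and SLC25A35), against backgrounds of 2.79% and 8.04%. The split of all genes depended on scaling. By total count 2346 genes were higher and 1909 lower, and by TMM factors 1932 were higher (15.2%) and 2612 lower (20.6%). The carriers counted 6 higher and 12 lower by TMM factors, so their 15.4% higher was then near the share of all genes.

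In miR-183-5p against the same NC library, 2 carriers were called lower (SLC25A26 and SLC25A32) and 3 higher (SLC25A14, SLC25A29 and SLC25A35). The backgrounds were 6.85% lower and 7.97% higher, and the carriers' 5.13% and 7.69% were near them. Their median log2 ratio was -0.08, against -0.03 for all genes. Without the mitochondrially encoded genes in the total, the split was 3 higher and 1 lower, SLC25A32 then standing at a ratio of 0.811. With that total, 9.70% of all genes were higher and 5.22% lower.

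Set directly against miR-183-5p, the miR-182-5p library had 4 carriers called higher (SLC25A16, SLC25A27, SLC25A37 and SLC25A51) and 4 called lower (among them SLC25A17, SLC25A20 and UCP2), against backgrounds of 12.3% and 5.74%. With TMM or DESeq2 factors the split was 2 higher and 7 lower, against 8.62% and 9.91% of all genes with TMM and 8.68% and 9.78% with DESeq2 factors. SLC25A37 and SLC25A51 then lost their call, and SLC25A5, SLC25A10 and SLC25A26 were called lower.

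**Figure D1:**
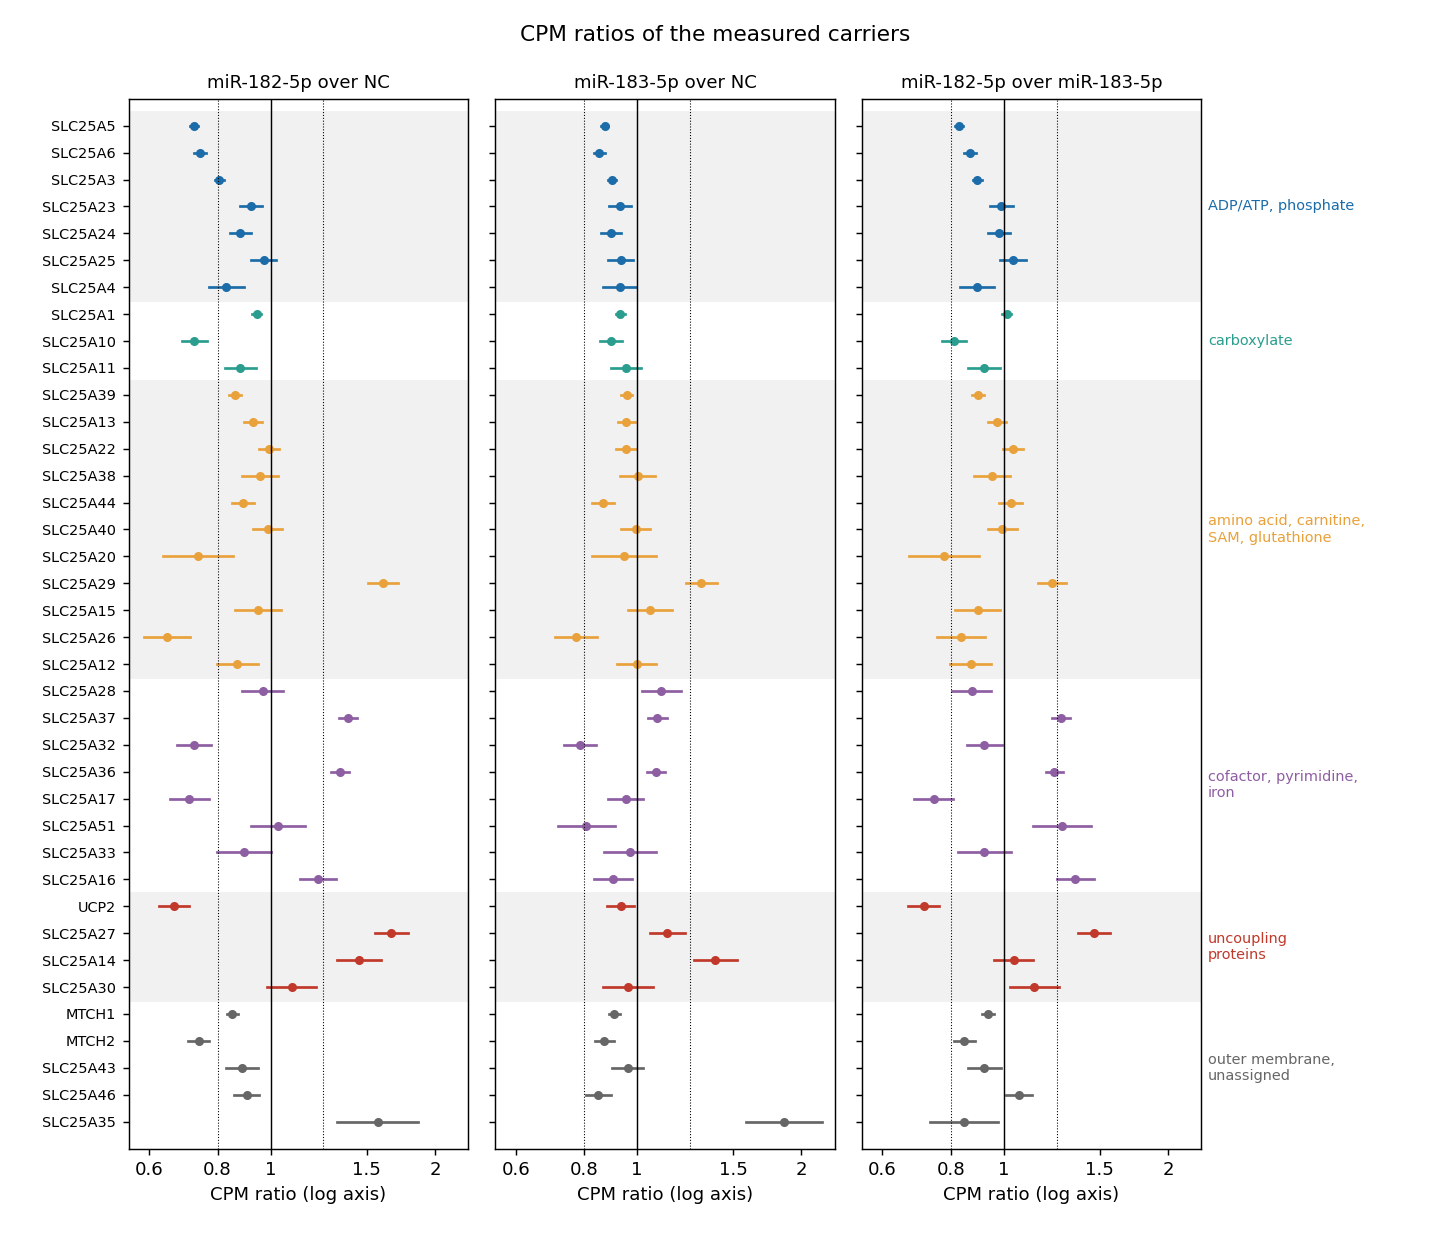
CPM ratio (log axis) of 38 measured carriers in miR-182-5p over NC, miR-183-5p over NC and miR-182-5p over miR-183-5p; points are coloured by role, bars are exact 95% intervals for counting error and dotted lines mark 25% higher and a ratio of 0.8. Of those drawn, 9 lie at or past the lower line and 6 at or past the upper line for miR-182-5p over NC, and 2 and 3 for miR-183-5p over NC.

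The adenine nucleotide and phosphate carriers were the most abundant group, and all 7 measured members had ratios below 1 in both comparisons with NC. A ratio below 1 was also found for 6654 of 12675 measured genes in miR-182-5p and for 7250 in miR-183-5p. At 10 FPKM or more, it was found for 2569 of 3659 genes in miR-182-5p and for 2570 in miR-183-5p. In miR-182-5p 2 of the 7 members were called lower (28.6%, against 15.1% of all genes). None was called lower in miR-183-5p, where 6.85% of all genes were. SLC25A5 (ENSG00000005022, X:119468422-119471396), the ADP/ATP translocase ANT2 that exchanges matrix ATP for cytosolic ADP, had 228 FPKM in miR-182-5p, 275 FPKM in miR-183-5p and 310.5 FPKM in NC. These levels rest on 25911 counts in miR-182-5p, 34142 in miR-183-5p and 37429 in NC, and the NC level was rank 61 of 12675 measured genes. The CPM ratio to NC was 0.724 (0.712 to 0.735) for miR-182-5p and 0.873 (0.860 to 0.886) for miR-183-5p. The counting intervals of the 2 ratios do not overlap, and miR-182-5p had the lowest of the 3 levels. SLC25A6 (ENSG00000169100, X:1386152-1392113), the ANT3 translocase, had 97.2 FPKM in miR-182-5p, 112 in miR-183-5p and 129 in NC. Its ratios were 0.742 (0.724 to 0.760) in miR-182-5p and 0.853 (0.834 to 0.873) in miR-183-5p, an order of libraries like that of SLC25A5. SLC25A4, the ANT1 translocase best known from heart and muscle, had 3.79 FPKM in miR-182-5p, 4.25 in miR-183-5p and 4.50 in NC and ratios of 0.831 in miR-182-5p and 0.930 in miR-183-5p. With the 3 translocases summed, FPKM came to 329 in miR-182-5p, 391 in miR-183-5p and 444 in NC. SLC25A5 made up 69.3% of the sum in miR-182-5p, 70.3% in miR-183-5p and 69.9% in NC, so the proportion of the isoforms hardly differed between libraries while the sum did. SLC25A3, the phosphate carrier, had 31.0 FPKM in miR-182-5p, 34.7 in miR-183-5p and 37.9 in NC and ratios of 0.806 (0.792 to 0.821) in miR-182-5p and 0.900 (0.885 to 0.916) in miR-183-5p. In miR-182-5p, SLC25A3 and SLC25A4 lay just outside the lower call, and both crossed it with TMM or DESeq2 factors. The calcium-regulated ATP-Mg/phosphate carriers SLC25A23, SLC25A24 and SLC25A25 had ratios of 0.921, 0.880 and 0.971 in miR-182-5p, and of 0.929, 0.896 and 0.933 in miR-183-5p. Near-identical copies can share reads with the translocases, and how such reads were assigned was not tested; 10 rows annotated as carrier pseudogenes together held 168 counts in miR-182-5p, 66 in miR-183-5p and 75 in NC.

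**Figure D2:**
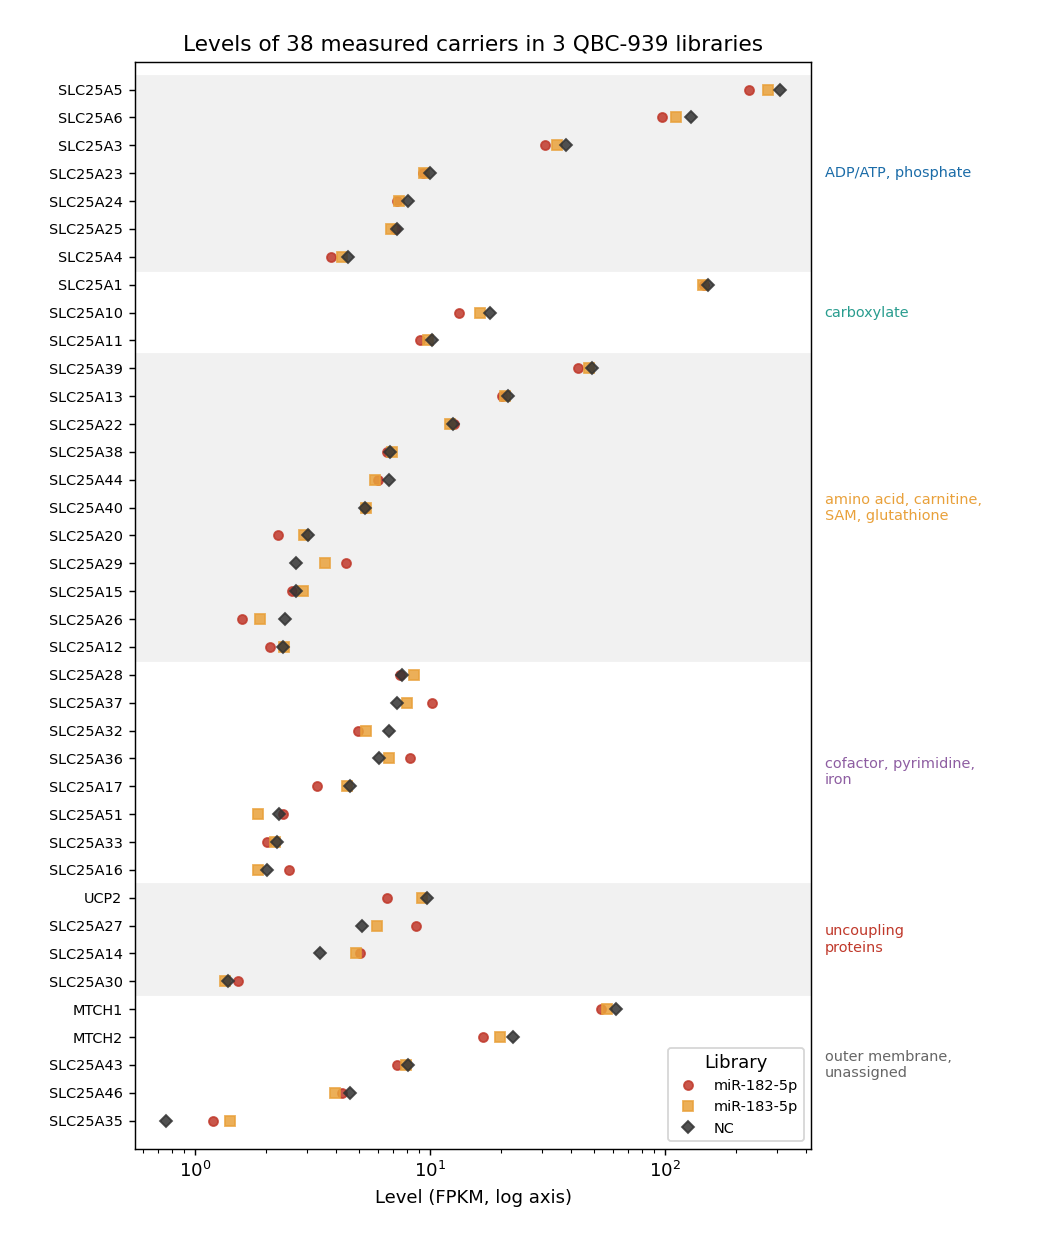
FPKM on a log axis of 38 measured carriers in the libraries of miR-182-5p, of miR-183-5p and of NC, 1 point per library. SLC25A5 stands highest at 228 FPKM in miR-182-5p, 275 in miR-183-5p and 310.5 in NC, and SLC25A35 has the lowest mean of the measured carriers.

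Among the carboxylate carriers, SLC25A1 (ENSG00000100075, 22:19175581-19178736), which exports citrate for lipid synthesis, was almost level. It had 147 FPKM in miR-182-5p, 145 FPKM in miR-183-5p and 153 FPKM in NC, with ratios of 0.944 (0.926 to 0.961) in miR-182-5p and 0.932 (0.915 to 0.949) in miR-183-5p. SLC25A10, the dicarboxylate carrier, had 13.3 FPKM in miR-182-5p, 16.4 in miR-183-5p and 18.03 in NC. It was called lower in miR-182-5p, at 0.726 (0.690 to 0.764), and stood at 0.895 (0.854 to 0.938) in miR-183-5p. SLC25A11, the oxoglutarate carrier of the malate-aspartate shuttle, had ratios of 0.881 in miR-182-5p and 0.956 in miR-183-5p, neither called. The oxodicarboxylate carrier SLC25A21 had 0 counts in miR-182-5p, 0 in miR-183-5p and 16 in NC and was not measured; the exact intervals of its ratios to NC reached up to 0.271 in miR-182-5p and 0.248 in miR-183-5p.

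Of the 11 measured carriers of amino acids, carnitine, S-adenosylmethionine (SAM) and glutathione, 1 was called higher and 2 lower in miR-182-5p, and 1 higher and 1 lower in miR-183-5p. The group's shares were 9.09% higher and 18.2% lower in miR-182-5p, against 18.5% and 15.1% of all genes, and 9.09% each way in miR-183-5p, against 7.97% and 6.85%. SLC25A29 (ENSG00000197119), which carries basic amino acids, had 4.41 FPKM in miR-182-5p, 3.59 FPKM in miR-183-5p and 2.70 FPKM in NC. Its ratios to NC were 1.61 (1.51 to 1.71) in miR-182-5p and 1.31 (1.23 to 1.40) in miR-183-5p, both called higher. SLC25A26 (ENSG00000144741), which imports the methyl donor SAM, lay at the other end. It had 680 counts in miR-182-5p, 889 in miR-183-5p and 1099 in NC, or 1.59 FPKM in miR-182-5p, 1.897 in miR-183-5p and 2.42 in NC. Its ratios of 0.647 (0.587 to 0.712) in miR-182-5p and 0.774 (0.708 to 0.846) in miR-183-5p were the lowest of any measured carrier in both comparisons. LRIG1 overlaps it on the opposite strand, with 2641 counts in NC and ratios of 1.06 in miR-182-5p and 1.10 in miR-183-5p. SLC25A20, the carnitine-acylcarnitine carrier of fatty acid oxidation, had 314 counts in miR-182-5p, 441 in miR-183-5p and 446 in NC. It was called lower in miR-182-5p, at 0.736 (0.635 to 0.852), and stood at 0.946 in miR-183-5p; between the microRNA libraries the ratio was 0.778 (0.671 to 0.901). SLC25A39, a glutathione carrier, had 42.7 FPKM in miR-182-5p, 47.6 FPKM in miR-183-5p and 49.02 FPKM in NC, and its relative SLC25A40 had 5.29 FPKM in miR-182-5p, 5.33 in miR-183-5p and 5.28 in NC. The ratios of SLC25A39 were 0.859 in miR-182-5p and 0.957 in miR-183-5p, and those of SLC25A40 were 0.988 in miR-182-5p and 0.994 in miR-183-5p. The aspartate-glutamate carrier SLC25A13 had 20.3 FPKM in miR-182-5p, 20.9 in miR-183-5p and 21.5 in NC, against 2.09 FPKM in miR-182-5p, 2.40 in miR-183-5p and 2.37 in NC for the related SLC25A12. In miR-182-5p, SLC25A12 stood at 0.870, SLC25A13 at 0.929, the glutamate carrier SLC25A22 at 0.994 and the glycine carrier SLC25A38 at 0.956. In miR-183-5p, SLC25A12 stood at 0.998, SLC25A13 at 0.956, SLC25A22 at 0.955 and SLC25A38 at 1.003. SLC25A44, a carrier of branched-chain amino acids, had 3224 counts in miR-182-5p, 3419 in miR-183-5p and 3782 in NC; it stood at 0.891 in miR-182-5p and at 0.865 (0.826 to 0.906) in miR-183-5p. The ornithine carrier SLC25A15 stood at 0.947 in miR-182-5p and 1.06 in miR-183-5p.

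Of the 9 measured cofactor, pyrimidine and iron carriers, 2 were called higher and 3 lower in miR-182-5p, or 22.2% and 33.3% against 18.5% and 15.1% of all genes. In miR-183-5p 1 was lower, or 11.1% against 6.85%. SLC25A37 (ENSG00000147454), mitoferrin 1, had 10.2 FPKM in miR-182-5p, 7.99 in miR-183-5p and 7.22 in NC. Its ratios to NC were 1.39 (1.33 to 1.44) in miR-182-5p and 1.09 (1.05 to 1.13) in miR-183-5p. Mitoferrin 2, SLC25A28, had 1001 counts in miR-182-5p, 1252 in miR-183-5p and 1082 in NC, or 7.47 FPKM in miR-182-5p, 8.56 in miR-183-5p and 7.61 in NC with ratios of 0.967 in miR-182-5p and 1.11 in miR-183-5p. SLC25A37 exceeded its paralogue 1.36-fold in FPKM in miR-182-5p, but stood at 0.933 of it in miR-183-5p and 0.949 in NC. SLC25A36, a pyrimidine nucleotide carrier, had 8.24 FPKM in miR-182-5p, 6.67 in miR-183-5p and 6.06 in NC and ratios of 1.34 (1.29 to 1.39) in miR-182-5p and 1.08 (1.04 to 1.13) in miR-183-5p. The related pyrimidine carrier SLC25A33 stood at 0.895 in miR-182-5p and 0.971 in miR-183-5p. SLC25A17, a peroxisomal member of the family that carries nucleotide cofactors, had 966 counts in miR-182-5p, 1416 in miR-183-5p and 1422 in NC and ratios of 0.710 (0.654 to 0.771) in miR-182-5p and 0.953 in miR-183-5p. Its counts were near-equal in miR-183-5p and NC and fewer in miR-182-5p. SLC25A32, the folate and FAD carrier, had 1320 counts in miR-182-5p, 1564 in miR-183-5p and 1903 in NC. Its ratios were 0.725 (0.676 to 0.778) in miR-182-5p and 0.786 (0.735 to 0.841) in miR-183-5p. DCAF13 overlaps it on the opposite strand, with 3693 counts in NC and ratios of 0.715 in miR-182-5p and 0.892 in miR-183-5p. Sharing of reads between them was not tested. SLC25A51, the NAD carrier, had 591 counts in miR-182-5p, 505 in miR-183-5p and 599 in NC, ratios of 1.03 in miR-182-5p and 0.807 (0.715 to 0.910) in miR-183-5p, and of 1.28 (1.13 to 1.44) in miR-182-5p over miR-183-5p. Its near-identical copy SLC25A52 had 6 counts in miR-182-5p, 0 in miR-183-5p and 7 in NC. SLC25A16, linked to coenzyme A supply of the matrix, had 1445 counts in miR-182-5p, 1168 in miR-183-5p and 1238 in NC; it stood at 1.22 (1.13 to 1.32) in miR-182-5p and 0.903 in miR-183-5p, and was called higher in miR-182-5p once mitochondrially encoded genes were left out of the total. Over miR-183-5p its ratio in miR-182-5p was 1.35.

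Of the 4 measured uncoupling proteins and relatives, 2 were called higher and 1 lower in miR-182-5p, where 18.5% of all genes were higher and 15.1% lower. In miR-183-5p 1 of the 4 was higher, against 7.97% of all genes. UCP2 (ENSG00000175567, 11:73974672-73983246), a carrier known for exporting C4 metabolites from the matrix, had 6.58 FPKM in miR-182-5p, 9.23 FPKM in miR-183-5p and 9.76 FPKM in NC. Its counts were 1530 in miR-182-5p, 2342 in miR-183-5p and 2402 in NC, giving ratios to NC of 0.666 (0.624 to 0.710) in miR-182-5p and 0.933 (0.881 to 0.988) in miR-183-5p, and 0.714 (0.669 to 0.762) in miR-182-5p over miR-183-5p. SLC25A27 (ENSG00000153291, 6:46652915-46678190), also called UCP4 and known from brain, had 8.71 FPKM in miR-182-5p, 5.95 in miR-183-5p and 5.16 in NC. Its counts were 2098 in miR-182-5p, 1566 in miR-183-5p and 1319 in NC. Its ratio of 1.66 (1.55 to 1.78) was the highest of any measured carrier in miR-182-5p; miR-183-5p stood at 1.14 (1.06 to 1.22). SLC25A14 (ENSG00000102078), also called UCP5, had 5.04 FPKM in miR-182-5p, 4.83 in miR-183-5p and 3.40 in NC and was called higher in both, at 1.45 (1.33 to 1.59) in miR-182-5p and 1.39 (1.27 to 1.52) in miR-183-5p. SLC25A27 thus stood above UCP2 in miR-182-5p and below it in miR-183-5p and NC. SLC25A30 had ratios of 1.09 in miR-182-5p and 0.962 in miR-183-5p. UCP3, 17.0 kb from UCP2 on the same strand, had only 91 counts in miR-182-5p, 86 in miR-183-5p and 69 in NC and was not measured.

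**Figure D3:**
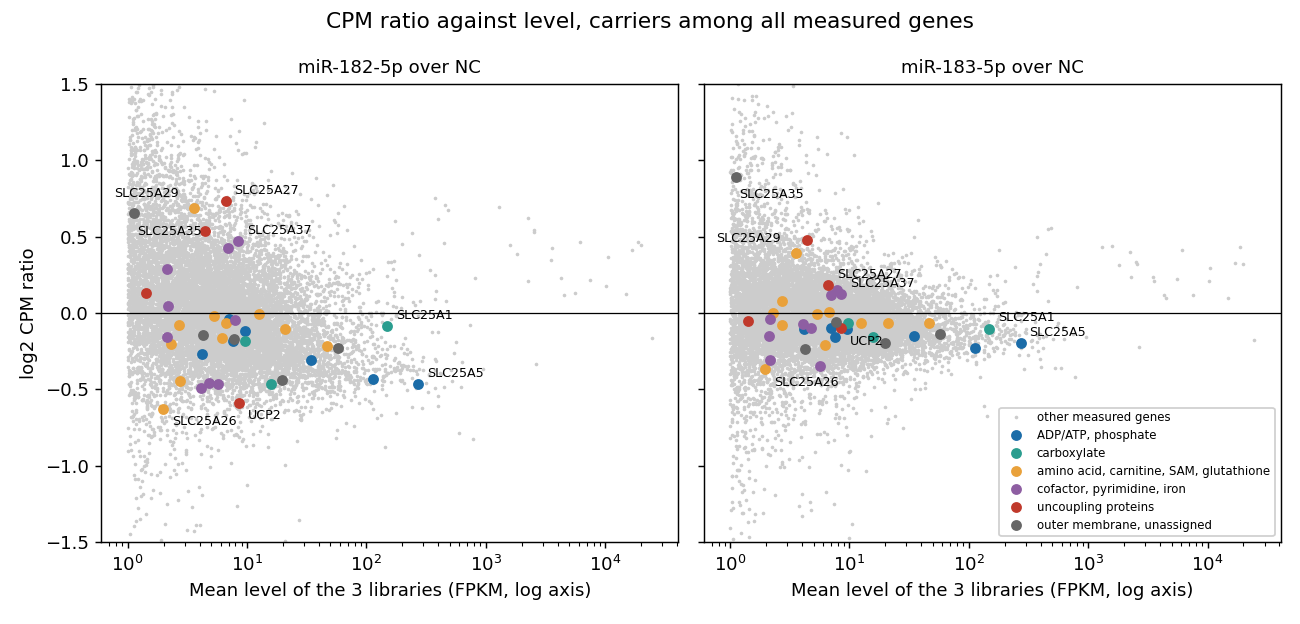
Log2 CPM ratio against mean FPKM (log axis) for all measured genes in grey and the carriers in colour by role, in miR-182-5p over NC and miR-183-5p over NC; genes beyond 1.5 on the log2 scale are not drawn. In miR-182-5p, UCP2 and SLC25A26 lie at the lower edge of the carriers and SLC25A27, SLC25A29 and SLC25A35 at the upper edge.

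Of the members in the outer membrane or of unassigned substrate, MTCH2 (ENSG00000109919), an outer-membrane insertase, was called lower in miR-182-5p. It had 16.9 FPKM in miR-182-5p, 19.98 in miR-183-5p and 22.6 in NC, with ratios of 0.738 (0.707 to 0.771) in miR-182-5p and 0.872 (0.837 to 0.907) in miR-183-5p. MTCH1, its paralogue, had 53.3 FPKM in miR-182-5p, 57.0 in miR-183-5p and 61.8 in NC and ratios of 0.851 (0.831 to 0.872) in miR-182-5p and 0.909 (0.889 to 0.930) in miR-183-5p. SLC25A46, which takes part in outer-membrane dynamics, had 2548 counts in miR-182-5p, 2614 in miR-183-5p and 2947 in NC; it stood at 0.904 (0.857 to 0.953) in miR-182-5p and 0.849 (0.805 to 0.895) in miR-183-5p, and SLC25A43 at 0.887 in miR-182-5p and 0.962 in miR-183-5p. SLC25A35, of unassigned substrate, had 347 counts in miR-182-5p, 448 in miR-183-5p and 231 in NC and ratios of 1.57 (1.33 to 1.86) in miR-182-5p and 1.86 (1.58 to 2.18) in miR-183-5p, the highest carrier ratio in miR-183-5p. It is the measured carrier with the lowest mean level, and at 0.753 FPKM in NC it passed the filter only through the microRNA libraries. RANGRF, which overlaps it on the opposite strand, had 915 counts in NC and ratios of 0.715 in miR-182-5p and 0.717 in miR-183-5p.

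In both comparisons with NC, the most abundant carriers had the lowest median among 3 classes of level. The 10 carriers at 10 FPKM or more had a median log2 ratio of -0.27 in miR-182-5p over NC, with 4 called lower and 0 higher. The 3659 genes at that level had a median of -0.15, with 23.1% lower and 7.19% higher. In miR-183-5p the same 10 had a median of -0.14, against -0.08 for all genes at that level. None of the 10 was called there, where 3.77% of all genes at that level were lower and 1.69% higher. The 15 carriers from 1 to under 5 FPKM had a median of -0.15 in miR-182-5p, against 0.09 for the 6120 genes of that level. The 14 carriers between these classes had a median of -0.09, against -0.05 for 2896 genes. Across the 39 carriers, level and ratio had a Spearman correlation of -0.27 for miR-182-5p and -0.22 for miR-183-5p, and across all measured genes of -0.33 for miR-182-5p and -0.19 for miR-183-5p. These points share their libraries and are given as a description.

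The miR-182-5p site lay in the longest annotated 3′ UTR of 4 of the 39 measured carriers (10.3%), against 1604 of 10552 measured genes (15.2%). Of the 4 genes, MTCH2 and SLC25A10 were called lower, and SLC25A3 and SLC25A46 were not. Called lower were 25.6% of the measured carriers and 15.1% of all genes. The share called lower among all genes with the site was not computed. Sites of 3 of the genes are shown with the seed match in capitals, in GRCh38 coordinates with GENCODE 29 transcripts.
MTCH2, chr11:47617596-47617624, minus strand: tcactgggacaTTGCCAAatgagtaagca
SLC25A10, chr17:81720736-81720764, plus strand: aacagttagttTTGCCAAagcctctccac
SLC25A46, chr5:110762117-110762145, plus strand: gacttcaatatTTGCCAAacgtttatttt
These 3 sites are in every protein-coding transcript of their gene that the GENCODE 29 basic set gives with a stop codon. MTCH2 has only 1 such transcript. The remaining gene, SLC25A3, has the site in 1 of its 9 such transcripts. Carriers with the site had a median log2 ratio of -0.37 in miR-182-5p over NC, and carriers without it -0.12. Over all genes the medians were -0.03 with and -0.05 without the site. Over miR-183-5p, which has another seed, the miR-182-5p ratios of these genes were 0.847 for MTCH2, 0.811 for SLC25A10, 0.896 for SLC25A3 and 1.07 for SLC25A46.

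The miR-183-5p site was found in 6 of the 39 carriers (15.4%), against 1287 genes (12.2%). Those shown are of the carriers with the lowest ratios in miR-183-5p that hold it, and of SLC25A36, which holds 2 sites and had a ratio above 1.
SLC25A26, chr3:66377931-66377959, plus strand: gcatggagattGTGCCATccgtggtatag
SLC25A51, chr9:37887623-37887651, minus strand: ccatcagttaaGTGCCATttatcaactga
SLC25A36, chr3:140978372-140978400, plus strand: tgccttttcagGTGCCATttctactgcct
SLC25A36, chr3:140978396-140978424, plus strand: tgcctaatacaGTGCCATttgccttgtga
Of the protein-coding transcripts counted as above, the SLC25A26 site is in 3 of 3, the SLC25A51 site in 1 of 2 and the SLC25A36 sites in 1 of 4. The ratios to NC in miR-183-5p were 0.774 for SLC25A26, 0.807 for SLC25A51, 0.946 for SLC25A20, 0.994 for SLC25A40, 1.08 for SLC25A36 and 1.09 for SLC25A37. Carriers with the site had a median of -0.04 and those without -0.10, against -0.04 and -0.05 over all genes. SLC25A26 had a ratio of 0.647 in miR-182-5p, and no miR-182-5p site was found in its longest 3′ UTR. The cause of its ratios was not tested. A match is a description of the sequence and not evidence of binding.

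RefSeq promoters (300 bases around the start of the gene, most of them upstream, GRCh38.p14) were matched for 33 of the 39 measured carriers. The E-box CACGTG, which reads the same on both strands and is known as a MYC-family motif, was in 8 of 33 (24.2%), against 954 of 8912 promoters of measured genes (10.7%). The 8 were MTCH1, MTCH2, SLC25A13, SLC25A33, SLC25A36, SLC25A38, SLC25A46 and SLC25A51. GCGCATGC or its complement GCATGCGC, part of the NRF1 motif, was in 1 of 33 (3.03%), against 5.91%. The promoters of MTCH2 and SLC25A36 are shown, with matches in capitals, because both hold the E-box while the first gene was called lower and the second higher in miR-182-5p.
MTCH2, chr11:47642510-47642809, minus strand: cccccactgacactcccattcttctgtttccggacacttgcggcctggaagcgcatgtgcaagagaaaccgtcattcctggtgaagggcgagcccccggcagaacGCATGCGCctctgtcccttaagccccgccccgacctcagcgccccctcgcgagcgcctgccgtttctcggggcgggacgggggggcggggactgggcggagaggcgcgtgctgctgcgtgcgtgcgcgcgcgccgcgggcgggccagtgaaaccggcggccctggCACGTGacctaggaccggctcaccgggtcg
SLC25A36, chr3:140941586-140941885, plus strand: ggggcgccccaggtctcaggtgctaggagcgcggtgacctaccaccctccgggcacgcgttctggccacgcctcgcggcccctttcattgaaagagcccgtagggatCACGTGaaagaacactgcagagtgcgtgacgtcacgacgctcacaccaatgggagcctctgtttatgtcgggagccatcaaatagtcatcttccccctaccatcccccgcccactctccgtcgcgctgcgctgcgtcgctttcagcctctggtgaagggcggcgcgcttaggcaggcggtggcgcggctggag

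The pathway that imports the carriers was described from a list of its textbook members. Of 13 measured import genes, 7 were called lower and 0 higher in miR-182-5p, with a median log2 ratio of -0.35; in miR-183-5p 1 was lower and the median was -0.15. The share called lower was thus 53.8% in miR-182-5p, against 15.1% of all genes, and 7.69% in miR-183-5p, against 6.85%. Of all genes, 18.5% were called higher in miR-182-5p. TIMM22, the pore of the carrier translocase, had ratios of 0.626 (0.574 to 0.683) in miR-182-5p and 0.799 (0.739 to 0.864) in miR-183-5p, both called lower. TOMM22, a receptor of the outer membrane, stood at 0.669 in miR-182-5p, while the TIMM22 partners TIMM29 at 1.04 and AGK at 0.953 had the highest ratios there. In miR-183-5p the small chaperone TIMM13 stood at 0.845, TIMM8B at 1.06 and AGK at 0.968. Of 12 genes of the TIM23 and matrix processing route, 7 were lower in miR-182-5p and 1 in miR-183-5p, with medians of -0.34 in miR-182-5p and -0.11 in miR-183-5p. The lower calls made up 58.3% in miR-182-5p, against 15.1% of all genes, and 8.33% in miR-183-5p, near the 6.85% of all genes. There the lowest ratios in miR-182-5p were 0.676 for GRPEL1 and 0.756 for TIMM23, and the highest were 1.18 for PAM16 and 0.914 for PMPCA. In miR-183-5p the lowest were 0.799 for TIMM17A and 0.868 for TIMM21, and the highest 1.12 for PAM16 and 0.993 for TIMM44.

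Of 20 other mitochondrial transport proteins, 2 were called higher and 5 lower in miR-182-5p, and 0 higher and 2 lower in miR-183-5p, with medians of -0.20 in miR-182-5p and -0.07 in miR-183-5p. All genes had 18.5% higher and 15.1% lower in miR-182-5p, and 7.97% higher and 6.85% lower in miR-183-5p. VDAC3, an outer-membrane pore, stood at 0.705 in miR-182-5p and the transporter ABCB6 at 0.678. In the same library SFXN3, a sideroflexin, stood at 1.29 and ABCB8 at 1.26. In miR-183-5p LETM1, an inner-membrane cation exchanger, was at 0.792, with SFXN3 at 1.18 and ABCB8 at 1.17. Of 10 regulators of mitochondrial gene expression, 2 were lower in miR-182-5p and 1 in miR-183-5p, with medians of -0.24 in miR-182-5p and -0.11 in miR-183-5p. Such counts are near the 15.1% of all genes lower in miR-182-5p and 6.85% in miR-183-5p. They were TFB1M, an rRNA methyltransferase, at 0.625 in miR-182-5p and 0.735 in miR-183-5p, and TFB2M, a transcription factor of mitochondrial DNA, at 0.740 in miR-182-5p; GABPA stood at 1.017 and NRF1 at 0.950 in miR-182-5p. In miR-183-5p MYC stood at 0.839, GABPA at 1.10 and PPRC1 at 1.03.

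**Figure D4:**
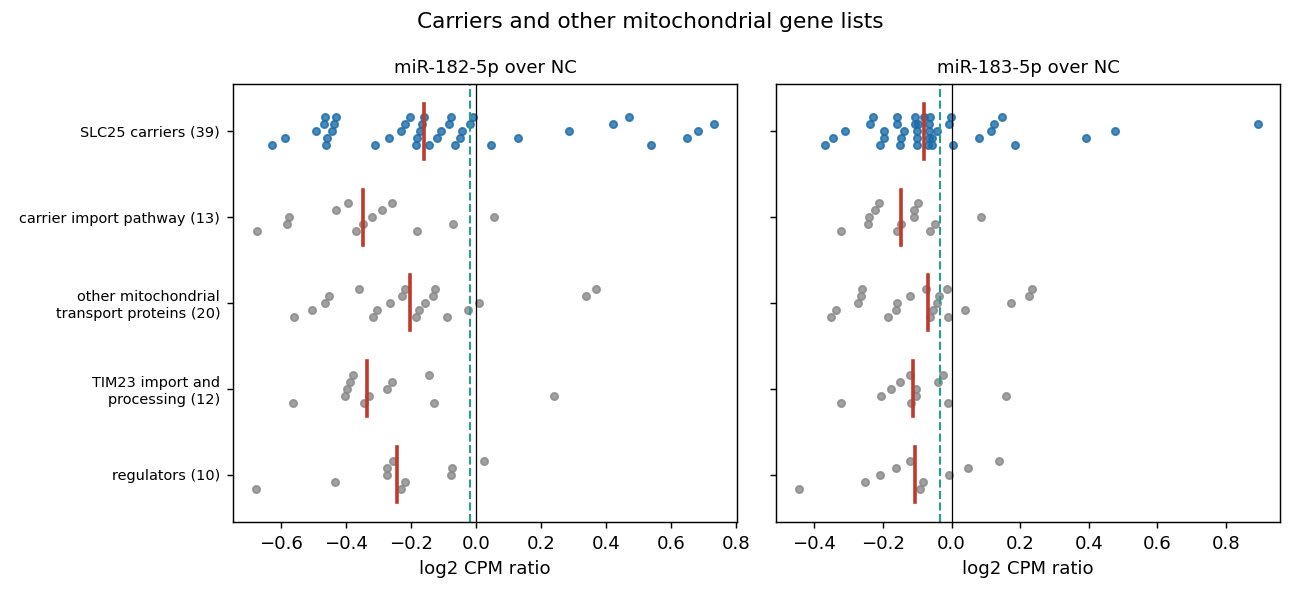
Log2 CPM ratio of each measured gene of the carriers and of 4 other mitochondrial lists, in miR-182-5p over NC and miR-183-5p over NC; red bars are list medians and the dashed line is the median of all measured genes. In miR-182-5p the list medians run from -0.35 for carrier import to -0.16 for the carriers, against -0.02 for all genes.

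The 11 carriers that were not measured included 8 with under 100 counts in every library. SLC25A45 had 820 counts in miR-182-5p, 540 in miR-183-5p and 375 in NC, or 1.42 FPKM in miR-182-5p, 0.852 in miR-183-5p and 0.610 in NC, with ratios of 2.29 (2.02 to 2.59) in miR-182-5p and 1.38 (1.21 to 1.58) in miR-183-5p. SLC25A42, a coenzyme A carrier, had 303 counts in miR-182-5p, 198 in miR-183-5p and 256 in NC, and SLC25A53 had 271 counts in miR-182-5p, 256 in miR-183-5p and 275 in NC. SLC25A34 had 48 counts in miR-182-5p, 52 in miR-183-5p and 14 in NC and SLC25A18, a glutamate carrier, had 38 counts in miR-182-5p, 21 in miR-183-5p and 16 in NC. The ornithine carrier SLC25A2 had 0 counts in miR-182-5p, 30 in miR-183-5p and 8 in NC. SLC25A47, SLC25A48 and SLC25A52 had at most 7 counts in any library, too few for a ratio.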

How the data were processed

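RNA-seq of 3 QBC-939 libraries, 1 per group, was used. The deposited table, made by the authors, gives raw read counts per gene, and per the file headers an FPKM value for each library beside them. Per the submitters' processing notes, cutadapt 1.9 and FastQC were used and the build was GRCm38; the gene identifiers in the table are human Ensembl identifiers. The coordinates of all 50 carriers overlap their GENCODE 29 (GRCh38) spans. Only 13 have the same start and end there (26.0%, against 59.4% of the genes found in both), and 36 share the start or the end (72.0%, against 86.8%). The 3′ UTRs searched for sites are those of protein-coding transcripts in the GENCODE 29 basic set and can differ from the annotation used for counting. The aligner, the counter and the handling of strand are each not given in the sources used here, so reads of a gene and of an opposite-strand partner cannot be told apart.

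CPM used the total of the table. Ratios had exact Clopper-Pearson 95% intervals conditional on the sum of both counts, which cover counting error only; reads carry no molecular identifiers. One count was worth 0.0162, 0.0148 and 0.0155 CPM in miR-182-5p, in miR-183-5p and in NC. Genes with a mean FPKM of at least 1 were measured. Called genes were at least 25% higher or at a ratio of 0.8 or less. The calculation was tested on simulated data. Levels or counts with ratios to NC were given for the 4 carriers highest in NC and for the 6 highest and 6 lowest ratios to NC. Carriers called between the microRNA libraries were named, some with that ratio. The 2 highest and 2 lowest ratios to NC of each other list were named, most of them by ratio alone. Intervals were given for part of the ratios, and other members were named by role. The members and lists were chosen with earlier results of these data known. Alternatives were TMM (edgeR 4.0.16) and DESeq2 1.42.0 size factors, a total without mitochondrially encoded genes, FPKM, log2(FPKM + 1), other filters, a 1.5-fold call and the removal of overlapping genes. Python 3.11.15 with scipy 1.17.1 and R 4.3.3 were used. The values of 1 measured carrier, of 1 other transport gene and of 1 site are not reported here, although the counts and medians include them.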

Additional observations from a re-analysis of the deposited data

How the results depend on the processing

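No paired analysis was possible because each group has 1 library, and for the same reason no replicate could be left out. No single carrier's called ratio changed direction: of 468 recomputed values, 409 stayed within the counting interval and 59 moved beyond it. The medians of the carriers stayed below 0 under every setting run, at -0.22 to -0.10 for miR-182-5p over NC, -0.10 to -0.04 for miR-183-5p over NC and -0.19 to -0.04 for miR-182-5p over miR-183-5p. The median of all genes moved with the setting too. For miR-182-5p over NC it was -0.08 with TMM or DESeq2 factors (carriers -0.22), and -0.10 at 5 FPKM or more (carriers -0.17). For miR-183-5p over NC it was -0.06 at 5 FPKM or more (carriers -0.10). The cause of the differences below was not tested except where the setting itself tests fewer or more genes. For miR-182-5p over NC, 10 of 48 were higher with no filter (35.3% of all genes), 3 higher and 6 lower of 24 at 5 FPKM or more (9.18% and 18.6% of all genes), 3 and 2 at 1.5-fold (8.04% and 2.79%), and 3 and 5 of 17 without genes overlapping on either strand (15.2% and 16.4%). For miR-183-5p over NC, 1 was lower without the mitochondrially encoded genes (median -0.036; 5.22% of all genes), 7 higher and 5 lower of 48 with no filter (24.5% and 18.3%, so the carriers lay below the share of all genes), 0 and 1 at 5 FPKM or more (2.33% and 4.47%), 0 lower on log2(FPKM + 1) (median -0.044; 3.35%), 1 and 0 at 1.5-fold (3.03% and 1.96%), and 1 and 0 without genes overlapping on either strand (5.63% and 7.08%). For miR-182-5p over miR-183-5p, 2 were higher and 7 lower with TMM (median -0.19) and with DESeq2 factors (median -0.19), 8 of 47 higher with no filter (28.9%), 2 and 1 at 5 FPKM or more (4.42% and 3.95%), 1 and 2 on log2(FPKM + 1) (7.01% and 3.44%), 0 and 0 at 1.5-fold (3.98% and 1.46%), and 2 and 2 without genes overlapping on either strand (10.6% and 5.69%). That last setting was chosen after seeing the data. Of the 39 measured carriers, 8 overlap a gene on the same strand, none with over 100 counts in NC, and 16 a gene on the opposite strand, 11 of them with over 100. Counting error was small at this depth, but the spread between cultures is unknown.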

Other observations

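Some transcripts that lie opposite a carrier, or are annotated as copies of one, had ratios to NC above 1 where the carrier did not. SLC25A25-AS1, on the strand opposite SLC25A25, had 4104 counts in miR-182-5p, 3435 in miR-183-5p and 2346 in NC, with ratios of 1.83 (1.74 to 1.92) in miR-182-5p and 1.40 (1.33 to 1.48) in miR-183-5p, while SLC25A25 itself stood at 0.971 in miR-182-5p and 0.933 in miR-183-5p. SLC25A5-AS1 had 330 counts in miR-182-5p, 353 in miR-183-5p and 251 in NC. The pseudogene SLC25A3P1 had 79 counts in miR-182-5p, 21 in miR-183-5p and 16 in NC, a ratio of 5.16 (2.99 to 9.47) in miR-182-5p over NC, and SLC25A5P1 had 59 counts in miR-182-5p, 18 in miR-183-5p and 10 in NC, while SLC25A3 and SLC25A5 had ratios below 1. Other such rows went the other way. NAIF1, which also overlaps SLC25A25 on the opposite strand, had 434 counts in miR-182-5p, 579 in miR-183-5p and 790 in NC. Its ratios to NC were 0.574 (0.510 to 0.647) in miR-182-5p and 0.701 (0.629 to 0.782) in miR-183-5p. The pseudogene SLC25A1P5 had 2 counts in miR-182-5p, 3 in miR-183-5p and 15 in NC. All genes named in this paragraph were chosen after their values were seen.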
